A study of Caenorhabditis elegans with 24 samples.

Results

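The expression difference between *pqm-1(ok485)* mutants and wild type (WT) was measured in worms that had both been exposed to 5 mM CoCl2 for 6 h. It was read on 3 of the 24 arrays of the series, those whose title sets *pqm-1* with CoCl2 against N2 with CoCl2 at 6 h. Each array held 2 RNAs, 1 from *pqm-1(ok485)* worms, which carry a loss-of-function allele, and 1 from worms of the WT strain N2, and each of the 3 arrays was a biological replicate of total RNA from whole worms in early adulthood. Every value is a log2 ratio of *pqm-1(ok485)* over WT, so that a value above 0 means more signal in the mutant. The same strains without CoCl2, compared on another 3 arrays at 6 h, are given beside them as the untreated strains.

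PQM-1 is a zinc finger transcription factor of *C. elegans* that acts in the intestine, moves between cytoplasm and nucleus in opposition to the forkhead factor DAF-16 of the insulin pathway, and binds a GATA-like element. CoCl2 is a chemical mimic of hypoxia: it stabilizes HIF-1, the transcription factor that the prolyl hydroxylase EGL-9 and the ubiquitin ligase subunit VHL-1 normally keep low. Cobalt is also a heavy metal and can stand in for iron in heme and in iron enzymes. The comparison asks which transcripts differ between the strains while the worms are under this stress. The paper reports slower development of *pqm-1* mutants and describes its array RNA as coming from worms synchronized by hypochlorite. Strain and developmental stage therefore cannot be told apart in the values below.

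Of 22067 genes tested, 3129 (14.2%) were higher and 1197 (5.42%) were lower in *pqm-1(ok485)* with CoCl2, together 19.6% (limma, adjusted p below 0.01). Of these, 17567 were matched to a RefSeq gene and the other 4500 are probe targets known by the array's own accession, counted as genes here, of which 4.78% were higher and 2.82% lower. A change of 2-fold or more was seen in 774 (3.51%) upward and 98 (0.444%) downward. These shares are the background for each count of gene list members below. List members were all drawn from the RefSeq genes. The closer background for them is the share of the matched genes, 16.6% higher and 6.09% lower. The median over all genes was -0.0018. Without replicate 1 the counts were 2225 and 685, and without replicate 2 they were 2199 and 560. Above background in 1 channel or both were 76.6% to 79.1% of an array's probes, and pairs of arrays correlated across genes with r of 0.82 to 0.92. The 3 arrays shared 1 slide and the untreated arrays another, so slide and treatment cannot be told apart in a comparison of the 2 sets. The strain and treatment fields of 2 of the 3 arrays give the opposite dyes to their source names, and the fields were followed. Under the source names those 2 arrays correlated with the third at -0.82 and -0.84 and limma called no gene, with 1994 genes at an unadjusted p below 0.05 against 8413 under the fields. On the third array both labels give the same dyes. Of the 112 genes named here and called, 111 had the other sign in the mean under the source names, so the directions below rest on the fields. The share of calls that were higher was 72.3% here, against 89.9% after median centering in place of loess, 90.9% with SAM and 58.2% with the scanner software's own ratios. Each SE below comes from the limma fit of all 12 arrays at 6 h, which pools a gene's spread over the 4 comparisons. It is not the spread of the 3 values printed beside it, which can be wider.

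The *pqm-1* probe did not mark the mutant with CoCl2. It read 0.05, 0.10 and -0.27 with CoCl2 (mean -0.04, SE 0.12, limma adjusted p = 0.858), against -2.44, -2.27 and -2.10 in the untreated strains (mean -2.27, adjusted p = 1.1e-07). The arrays with CoCl2 thus overlapped 0 and the untreated arrays lay far below it, with a difference, with minus without CoCl2, of 2.23 (SE 0.17, adjusted p = 1.6e-05). Over all genes 673 such differences passed the threshold, and after median centering only 3 above 0 and 9 below did. On the arrays of each strain's own response, CoCl2 over untreated, the probe read 3.00, 2.69 and 2.37 in *pqm-1(ok485)* and 0.56, 0.95 and 0.81 in WT. Where the single probe lies relative to the deletion is not known here, so with CoCl2 it does not check the strain labels.

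**Figure D1:**
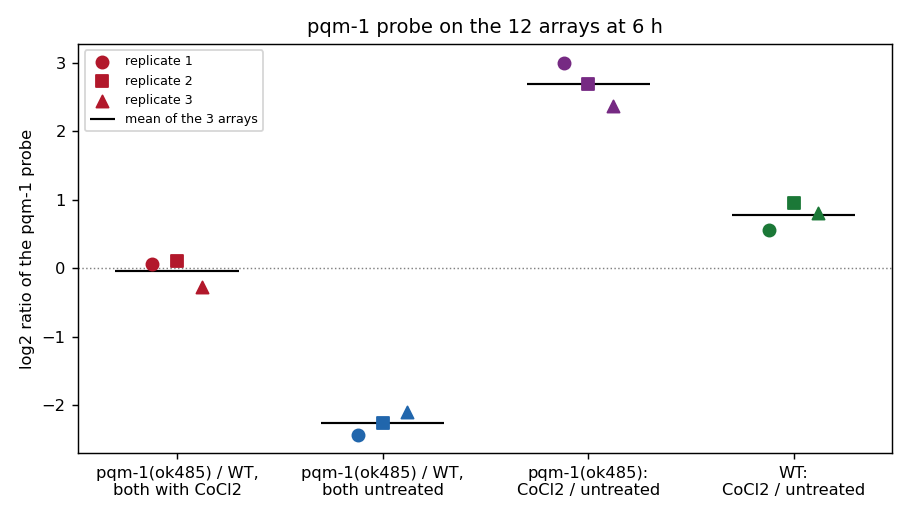
Log2 ratio of the *pqm-1* probe (y axis) on each of the 12 arrays at 6 h, by comparison (x axis), with points for the 3 replicates and a line for their mean. The 3 arrays of the strains with CoCl2 lie between -0.27 and 0.10, and the 3 untreated arrays between -2.44 and -2.10.

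Other transcripts marked the strain in both states. *NM_077386*, a probe target with no gene match, read -3.46, -3.58 and -3.47 with CoCl2 (mean -3.50, SE 0.06) and averaged -3.43 in the untreated strains. *TC191869*, *M79.2* and *M79.3* averaged -3.27, -3.07 and -2.39 with CoCl2 and -3.30, -3.39 and -2.32 untreated. *M79.2* was above background on 2 of the 3 mutant arrays, and its mean was -5.80 by the scanner software's ratios. All 4 were thus called lower by nearly the same amount with and without CoCl2. *clec-190*, a C-type lectin, read -3.60, -3.49 and -3.40 with CoCl2, and *M199.9*, named from the same cosmid on chromosome IV, averaged -2.30. Both were lower with CoCl2 than without it, where they averaged -2.23 and -1.19 (differences of -1.27 and -1.11, adjusted p = 0.00068 and 2.6e-05).

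The largest rises were in transcripts of sperm and of the cuticle. The highest single gene was *col-162*, a cuticle collagen, at 4.28, 3.91 and 4.11 (mean 4.10, SE 0.27, 17.1-fold, adjusted p = 3.8e-07), and it averaged 4.16 in the untreated strains. All 24 genes tested for major sperm protein, the cytoskeletal and signaling protein of nematode sperm, were called higher, with a median of 3.25 and a range of 1.71 to 3.48. *msp-19* led them at 4.04, 3.03 and 3.36 (SE 0.27, adjusted p = 1.3e-06). On every array the median of these genes was far above 0, at 3.65, 2.65 and 3.36. The *msp* genes are near-identical copies, so their probes cannot be taken as separate genes. In RNA of whole worms, more cells of a type and more RNA per cell, or fewer cells and less RNA per cell, cannot be told apart.

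Among 66 other spermatogenesis genes tested, 47 were higher and none lower, with a median of 0.83, against 3.25 for the *msp* genes. *nspd-2*, of a nematode-specific peptide family found in sperm, led them at 4.17, 2.81 and 3.29 (mean 3.42, 10.7-fold). The untreated strains gave like counts, with 24 of 24 *msp* genes higher (median 3.31) and 44 of 66 other spermatogenesis genes higher (median 0.75). No gene of either list had a with-minus-without difference past the threshold. Of 10 genes of male sensory neurons, 6 were tested and none was called, and their values lay between -0.14 and -0.01. *lov-1*, *cwp-1*, *cwp-3* and *cwp-5* did not pass the filter on dim probes.

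Oocyte genes lay on the other side of 0. Of 23 oocyte and eggshell genes tested, 12 were lower and 1 higher, with a median of -0.42, and the untreated strains had 2 lower (median -0.29). No gene of this list had a with-minus-without difference past the threshold (median difference -0.096). *cpg-1*, a chondroitin proteoglycan of the eggshell, averaged -0.61 (SE 0.10), *perm-2*, a protein of the permeability barrier, -0.55 (SE 0.07), and *rme-2*, the yolk receptor of oocytes, -0.49 (SE 0.10). These falls were 1.53-fold, 1.46-fold and 1.41-fold, small beside the rise of the sperm genes. The member called higher was *cav-1*, a caveolin, at 0.65, 0.61 and 0.55 (SE 0.12). Of 35 genes of meiosis, germ granules and replication, 9 were lower and none higher (median -0.27), among them the replicative helicase subunit *mcm-2* at -0.48 (SE 0.06). After median centering no gene of either list was called lower, and without replicate 1 or replicate 2 the lower calls in the oocyte list were 4 and 5. *rme-2* lost its call without any 1 replicate (adjusted p 0.012 to 0.0326), and *cav-1* without replicate 1 or 2 (adjusted p 0.0187 and 0.0171).

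Yolk protein transcripts were all lower. Vitellogenins are lipoproteins made in the intestine of adult hermaphrodites and carried into oocytes, and all 5 that were tested fell, with a median of -1.81 with CoCl2, against 4 of 5 and a median of -0.76 in the untreated strains. *vit-1* read -1.86, -2.07 and -1.85 (mean -1.93, SE 0.21, 3.8-fold, adjusted p = 2.2e-05), *vit-2* averaged -1.37 (SE 0.13), and *vit-6* averaged -1.21 (SE 0.09). *vit-4* and *vit-5* both averaged -1.81 (SE 0.12 and 0.16). On each of the 5, all 3 arrays were below -1, and the 5 calls held under each alternative tried except the dyes of the source names. *vit-3* had no probe matched, and *vit-3*, *vit-4* and *vit-5* are close copies. The deeper fall with CoCl2 was past the threshold for *vit-1* (difference -1.68, SE 0.30, adjusted p = 0.0054; untreated mean -0.24) and for *vit-4* (difference -1.003, SE 0.17, adjusted p = 0.0037). Leaving out any 1 of the 6 arrays ended the call for *vit-1* (adjusted p 0.0119 to 0.033), and leaving out replicate 1 or 2 of either state ended it for *vit-4* (adjusted p 0.0169 to 0.0222).

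Many cuticle genes were higher in the mutant with and without CoCl2. Of the cuticle collagens tested, 84 were higher, 3 were lower and 75 did not pass the threshold, with a median of 0.47, against 86 higher and 7 lower (median 0.50) in the untreated strains. *dpy-13*, a collagen that shapes the body, read 3.17, 3.51 and 2.95 (mean 3.21, SE 0.20). The lowest collagen was *col-74* at -2.63, -2.71 and -2.70 (mean -2.68, SE 0.30), and *cut-3*, a cuticlin, averaged -2.12 (SE 0.17), against -4.34 and -3.29 in the untreated strains. Of 90 hedgehog-related and molting genes, 13 were higher and 5 lower. *grd-16*, a hedgehog-related gene, averaged 1.56 with CoCl2, against -0.29 in the untreated strains, where it was not called (difference 1.85, adjusted p = 0.00092). Median centering left 54 collagens higher. Many collagens are close copies, and their probes may not tell them apart.

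**Figure D2:**
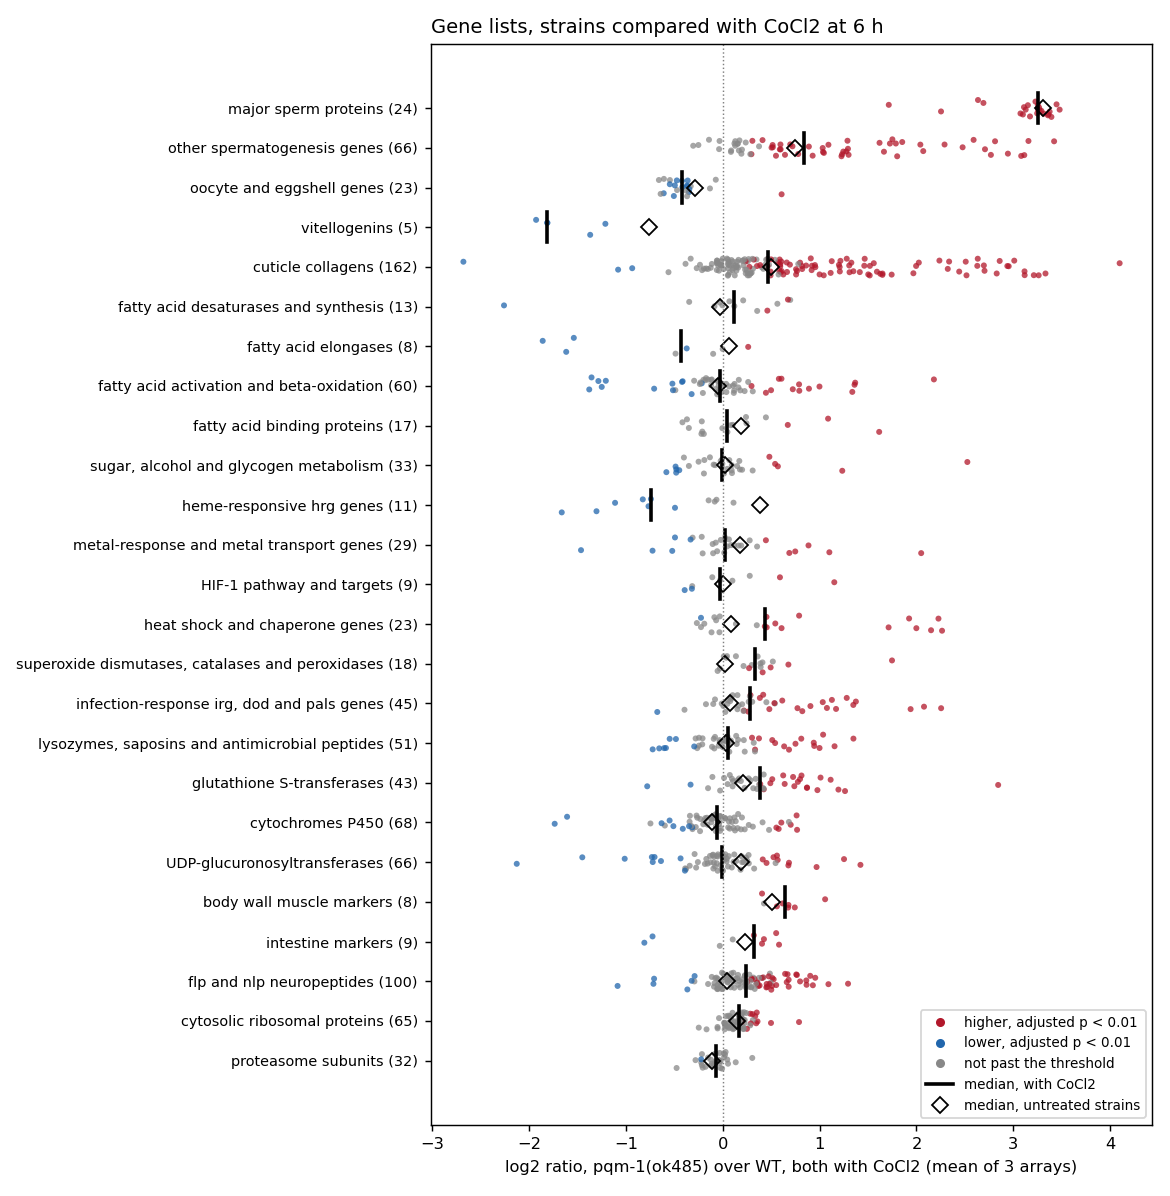
Mean log2 ratio of *pqm-1(ok485)* over WT with CoCl2 (x axis) for the genes tested in 25 lists (rows, number tested in parentheses), with a bar for the median with CoCl2 and an open diamond for the median of the same genes in the untreated strains. Sperm and collagen genes extend to the right in both states, while the vitellogenins, at a median of -1.81, and the *hrg* genes, at -0.74, lie left of their untreated medians of -0.76 and 0.38.

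Among the fatty acid desaturases, the paralogs moved apart. These enzymes place double bonds in fatty acid chains and need oxygen to do so. *fat-7*, a stearoyl-CoA desaturase, read -2.19, -2.37 and -2.22 with CoCl2 (mean -2.26, SE 0.10, 4.79-fold, adjusted p = 2.6e-08), against a mean of -0.62 in the untreated strains. Its difference with minus without CoCl2 was -1.64 (SE 0.14, adjusted p = 3.6e-05). *fat-6*, the closest paralog of *fat-7* with the same activity, read 0.45, 0.60 and 0.34 (mean 0.46, SE 0.08, adjusted p = 0.0011) and averaged 0.49 untreated. *fat-5*, a palmitoyl-CoA desaturase, averaged 0.36 and missed the threshold (adjusted p = 0.019). *fat-2*, which acts on oleate, averaged 0.07. Of 13 genes of fatty acid synthesis and desaturation, 2 were higher and 1 lower, so *fat-7* was the only one of them called lower. The call of *fat-6* was lost without replicate 2 (adjusted p = 0.0181) and after median centering.

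Elongases, which lengthen fatty acid chains, fell in part. *elo-2*, which elongates palmitate, read -1.52, -2.13 and -1.93 with CoCl2 (mean -1.86, SE 0.13, 3.63-fold, adjusted p = 6.5e-07), against 0.45 in the untreated strains. *elo-5* and *elo-6*, which make branched-chain fatty acids, averaged -1.62 (SE 0.15) and -1.54 (SE 0.14), against 0.08 and 0.19 untreated. The differences with minus without CoCl2 were -2.31, -1.69 and -1.73, each past the threshold (adjusted p = 2.6e-05, 0.00065 and 0.00031). The 3 genes therefore were lower in the mutant with CoCl2 and not called in the untreated strains. *elo-9* read -0.05, -0.10 and -0.14 (SE 0.07, adjusted p = 0.34) and was not called in either state. Of 8 elongases tested, 4 were lower and 1 higher. The fourth lower gene, *elo-4*, averaged -0.37 and lost its call without any 1 replicate (adjusted p 0.0147 to 0.0335). The higher one, *elo-7*, averaged 0.26 and lost it likewise (adjusted p 0.0294 to 0.0809), and its mean was 1.86 by the scanner software's ratios.

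Genes of fatty acid activation and β-oxidation split in direction, with 14 higher and 12 lower of 60 tested and a median of -0.03. The 5 lowest were enzymes of the β-oxidation steps. *acdh-1*, an acyl-CoA dehydrogenase of the propionate shunt, read -1.06, -1.35 and -1.72 (mean -1.38, SE 0.11), and its relative *acdh-2* averaged -1.28 (SE 0.16). *hacd-1*, a hydroxyacyl-CoA dehydrogenase, averaged -1.35 (SE 0.12), and the enoyl-CoA hydratases *ech-7* and *ech-9* averaged -1.21 (SE 0.06) and -1.25 (SE 0.28). In the untreated strains none of these 5 was lower, and *ech-7* was higher at 0.36. *ech-9* was the least certain of the 5, since its call was lost without any 1 replicate (adjusted p 0.0156 to 0.0503).

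Acyl-CoA synthetases, which activate fatty acids, were among the higher calls. *acs-10* and *acs-3* averaged 1.37 and 1.36 (SE 0.08 and 0.10), and neither had a with-minus-without difference past the threshold. *acs-17* read 0.93, 1.04 and 0.70 (mean 0.89, SE 0.10), against -0.32 untreated (difference 1.21, adjusted p = 0.00038). *acs-2*, a mitochondrial acyl-CoA synthetase, was not called with CoCl2, at 0.07, 0.32 and 0.54 (mean 0.31, SE 0.16, adjusted p = 0.18). In the untreated strains it was lower at -1.09, and its difference of 1.40 passed the threshold (adjusted p = 0.0031), but not without untreated replicate 1 or 2 or CoCl2-treated replicate 2 or 3 (adjusted p 0.0129 to 0.0198). *far-7*, a fatty acid and retinol binding protein, read 1.47, 1.74 and 1.64 (mean 1.61, SE 0.12, 3.06-fold), against -0.0043 untreated (difference 1.62, adjusted p = 0.00021). Of 17 fatty acid binding proteins 3 were higher and none lower, *far-7* and *lbp-1* (1.09, SE 0.13) among them. Median centering left 7 of the 14 higher and 5 of the 12 lower calls in count in the β-oxidation list, and *acs-17* and *lbp-1* were not called under it.

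The lipases showed smaller changes, with 5 of 24 higher and 4 lower. *lips-17*, a lipase-related gene, averaged 1.46 (SE 0.10). *lipl-1*, a lysosomal lipase, averaged 1.04 (SE 0.14) and was above background on all 3 arrays in the mutant channel and on 1 in the WT channel, and its mean was 3.12 by the scanner software's ratios.

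In sugar and alcohol metabolism a single gene stood far from the rest. *sodh-1*, an alcohol and sorbitol dehydrogenase, read 2.205, 2.76 and 2.61 with CoCl2 (mean 2.53, SE 0.17, 5.76-fold, adjusted p = 5.7e-07). In the untreated strains it was lower in the mutant, at a mean of -0.87 (adjusted p = 0.003), so its sign turned, with a difference of 3.398 (SE 0.25, adjusted p = 1.5e-05). Of the 33 genes of sugar, alcohol and glycogen metabolism tested, 5 were higher and 5 lower, with a median of -0.0044. *pfk-1.2*, a phosphofructokinase, averaged 1.23 (SE 0.12) and 1.11 untreated. *tps-2* and *tps-1*, the synthases of trehalose phosphate, averaged 0.57 and 0.54. *gpd-4*, a glyceraldehyde phosphate dehydrogenase, averaged -0.58 (SE 0.08), and *ldh-1*, the lactate dehydrogenase, read -0.45, -0.60 and -0.42 (SE 0.10). The call of *ldh-1* was lost without replicate 1 or 2 (adjusted p 0.0133 and 0.0289) and that of *tps-1* without replicate 3 (adjusted p = 0.0127). Of the 5 higher genes 2 were left after median centering, and of the 5 lower none. In the citric acid and glyoxylate cycles, 1 of 21 genes was higher and 1 lower.

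**Figure D3:**
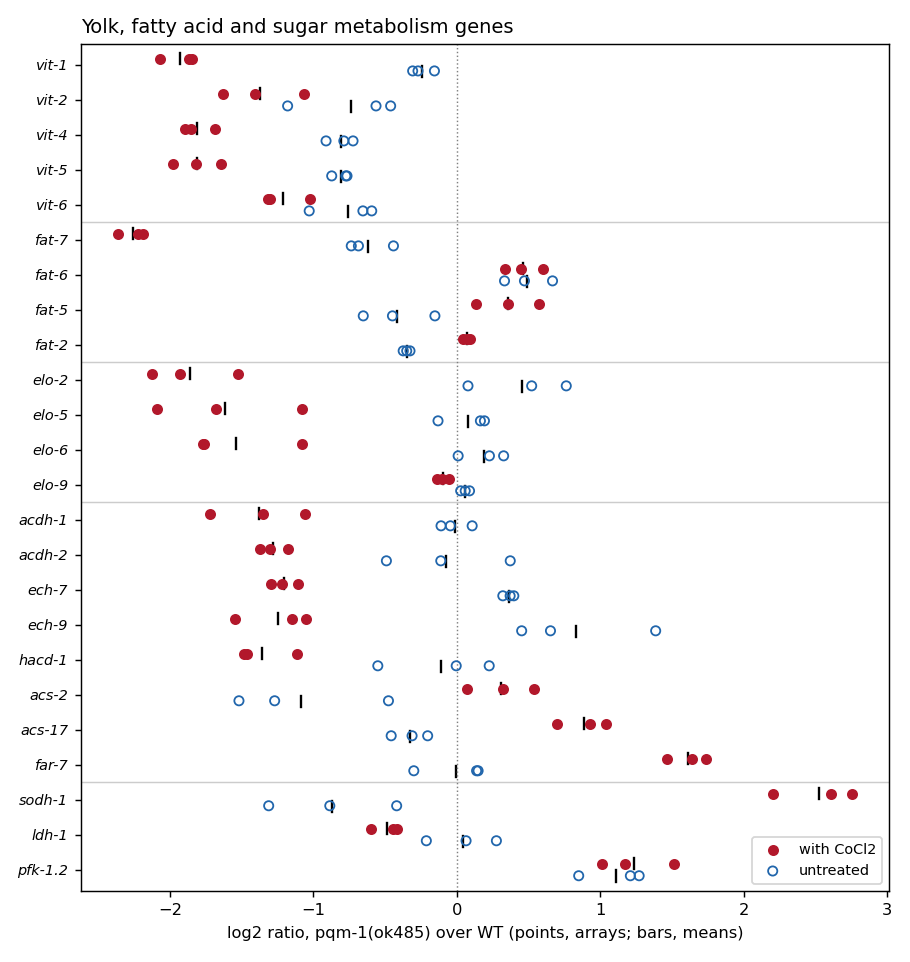
Log2 ratio of *pqm-1(ok485)* over WT (x axis) on each array with CoCl2 (filled red points, above) and on each untreated array (open blue points, below) for vitellogenins, desaturases, elongases, fatty acid oxidation and binding genes and sugar genes (rows), with bars for the means. *fat-7*, *elo-2*, *elo-5* and *elo-6* lie below -1 on all 3 arrays with CoCl2, and *sodh-1* lies above 2 with CoCl2 and below 0 without it.

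Several heme-responsive genes were lower in the mutant with CoCl2 and higher in the untreated mutant. Worms cannot make heme and take it up from their food, through importers such as HRG-1 and HRG-4 in the intestine, and many *hrg* genes are induced when heme is scarce. Of 11 *hrg* genes tested, 7 were lower and none higher with CoCl2 (median -0.74), while in the untreated strains 5 were higher and none lower (median 0.38). *hrg-4* read -1.22, -1.76 and -2.0005 with CoCl2 (mean -1.66, SE 0.18, 3.17-fold, adjusted p = 2.2e-05), against 1.65 untreated. *hrg-7*, a secreted aspartic protease-like protein that signals heme status, read -0.74, -1.29 and -1.88 (mean -1.30, SE 0.18), against 2.30 untreated. *hrg-1* read -0.74, -0.75 and -0.99 (mean -0.83, SE 0.09), against 1.58 untreated. For each of these genes every array with CoCl2 lay below 0 and every untreated array above it. The differences were -3.31 for *hrg-4*, -3.60 for *hrg-7* and -2.41 for *hrg-1* (adjusted p = 2.4e-05, 1.5e-05 and 4.6e-06).

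*hrg-2*, a heme-binding protein of the hypodermis, read -0.19, -0.88 and -1.23 with CoCl2 (mean -0.77, SE 0.18) and averaged 1.36 untreated. *hrg-3*, which carries heme from the intestine to embryos, was measured on 2 arrays, at -0.80 and -1.43 (mean -1.11, SE 0.23), and averaged 0.82 untreated. *hrg-6*, a paralog of the importers, averaged -0.74 (SE 0.12) and *hrg-14* averaged -0.49 (SE 0.09). The other members, *hrg-5*, *hrg-9*, *hrg-10* and *hrg-13*, lay between -0.15 and 0.11 and were not called, and *hrg-5* was not above background in either strain. The call of *hrg-2* was lost without replicate 2 or 3 (adjusted p 0.0474 and 0.0573), and that of *hrg-14* without replicate 2 (adjusted p = 0.0137). The list had 1 lower call after median centering (*hrg-4*) and 2 with SAM.

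Metal-response genes split, with 6 of 29 higher and 5 lower. *numr-1*, a nuclear protein induced by metals, read 1.69, 2.49 and 1.97 (mean 2.05, SE 0.14, 4.14-fold), against 0.46 untreated (difference 1.58, adjusted p = 0.00056). The metallothioneins, which bind metal ions, lay on opposite sides: *mtl-1* read 1.15, 0.84 and 1.31 (mean 1.101, SE 0.26) and *mtl-2* read -0.47, -0.84 and -0.87 (mean -0.73, SE 0.09). *ftn-2*, a ferritin heavy chain that stores iron, averaged 0.75 (SE 0.06), and *smf-3*, an intestinal importer of manganese and iron, read -1.11, -1.55 and -1.73 (mean -1.46, SE 0.22). In the untreated strains *mtl-1* averaged -0.42, *mtl-2* 0.17, *ftn-2* 0.28 and *smf-3* 0.21. The call of *mtl-1* was lost without any 1 replicate (adjusted p 0.0217 to 0.0444), and those of *mtl-2*, *ftn-2* and *smf-3* after median centering, which left 2 higher and 1 lower calls in the list.

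In the HIF-1 pathway, 2 of 9 genes were higher and 2 lower, with a median of -0.03. *hif-1* itself averaged -0.03 (SE 0.06, adjusted p = 0.78). *F22B5.4*, a HIF-1 target, averaged 1.15 (SE 0.15) and *cysl-1*, a cysteine synthase family member that binds EGL-9, averaged 0.59 (SE 0.08). *egl-9* and *vhl-1* averaged -0.32 (SE 0.05) and -0.39 (SE 0.08), and the target *nhr-57* averaged 0.28 and was not called (adjusted p = 0.14). The call of *vhl-1* was lost without replicate 1 or 2 (adjusted p 0.0302 and 0.0268), and after median centering only that of *F22B5.4* was left.

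The highest heat shock genes were small heat shock proteins. Of 23 heat shock and chaperone genes tested, 12 were higher and 1 lower with CoCl2 (median 0.43), against 8 higher and none lower in the untreated strains (median 0.09). The small heat shock proteins *hsp-16.48*, *hsp-16.41* and *hsp-16.2* averaged 2.26, 2.23 and 2.15 (SE 0.25, 0.19 and 0.16), against 2.33, 1.29 and 0.83 untreated. *hsp-70*, an inducible chaperone, read 1.24, 2.58 and 2.18 (mean 2.00, SE 0.20). Replicate 1 was the lowest array for all 4 genes, and all 4 calls held without any 1 replicate. The *hsp-16* genes come as near-identical pairs, and their probes may not tell the copies apart. Median centering left 8 of the 12 higher calls in the list.

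Among 18 superoxide dismutases, catalases and peroxidases, 5 were higher and none lower (median 0.33). *sod-3*, the mitochondrial manganese enzyme and a known DAF-16 target, read 1.89, 2.06 and 1.29 (mean 1.75, SE 0.20, 3.36-fold), against 0.73 untreated. *sod-4*, the extracellular copper and zinc enzyme, read 0.62, 0.74 and 0.67 (mean 0.68, SE 0.06), against 0.01 untreated (difference 0.67, adjusted p = 0.00064). After median centering 1 gene of this list was called higher, *sod-3*. Of 26 genes of the unfolded protein response of the endoplasmic reticulum, 9 were higher and 1 lower, against 7 higher and 2 lower untreated. No gene of that list had a with-minus-without difference past the threshold. Among the higher ones were *abu-15* (1.03) and *abu-6* (0.93) of a family rich in glutamine and asparagine, at 2.48 and 1.76 by the scanner software's ratios.

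**Figure D4:**
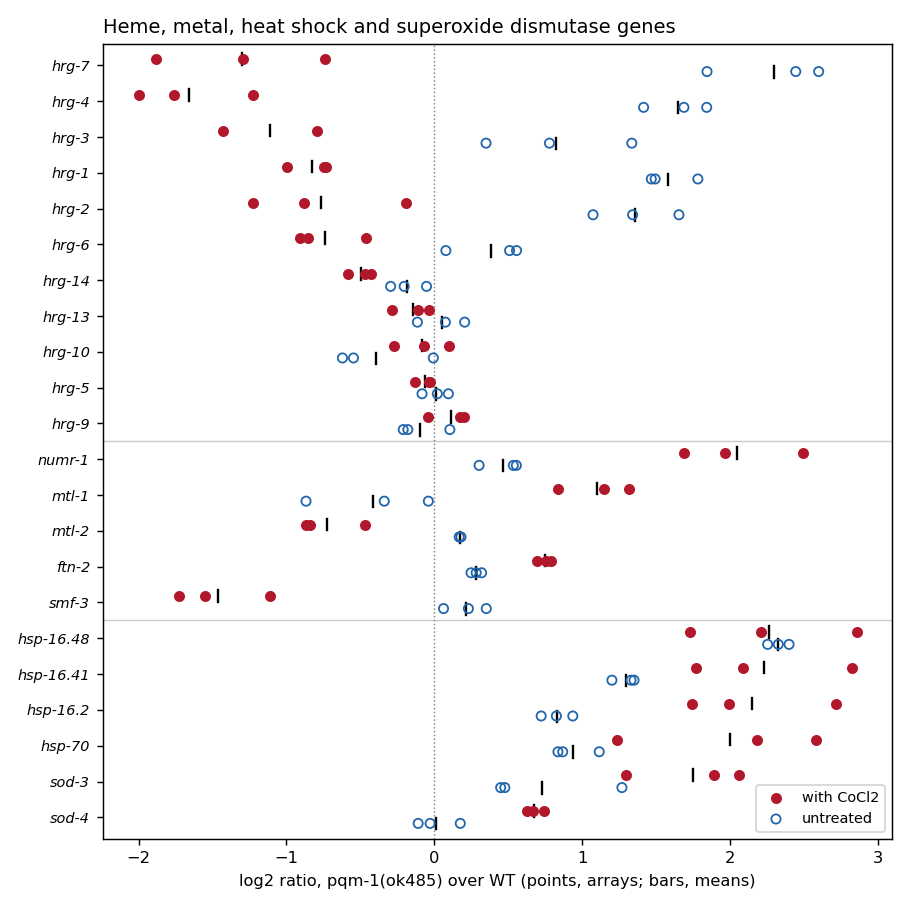
Log2 ratio of *pqm-1(ok485)* over WT (x axis) on each array with CoCl2 (filled red points, above) and each untreated array (open blue points, below) for *hrg* genes, metal-response genes and heat shock and superoxide dismutase genes (rows), with bars for the means. *hrg-1*, *hrg-4* and *hrg-7* lie below 0 on all arrays with CoCl2 and above 1 on all untreated arrays, and *numr-1* and the *hsp-16* genes lie above 1 on all arrays with CoCl2.

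Of 14 transcription factors and kinases that act with PQM-1 and DAF-16, 2 were higher and 1 lower, shares near those of all genes. *elt-2*, the GATA factor of the intestine, read 0.54, 0.46 and 0.75 (mean 0.58, SE 0.09), and *sgk-1*, a kinase of the insulin pathway, averaged 0.31 (SE 0.07). *daf-16* averaged 0.04, and *ceh-60* and *unc-62*, homeodomain factors that act on yolk genes, averaged 0.13 and -0.17, none of them past the threshold. The call of *sgk-1* was lost without replicate 1 or 3 (adjusted p 0.0466 and 0.0261), and neither *elt-2* nor *sgk-1* was called after median centering.

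Among genes that respond to infection, higher calls outnumbered lower ones. Of 45 *irg*, *dod* and *pals* genes tested, 21 were higher and 1 lower (median 0.28), against 7 higher and 1 lower (median 0.08) untreated. *pals-32* read 2.02, 2.48 and 2.26 (mean 2.25, SE 0.13), *irg-4* read 2.14, 1.96 and 2.14 (mean 2.08, SE 0.08), and *dod-3* read 1.84, 1.97 and 2.02 (mean 1.94, SE 0.18). They differed in the untreated strains, at 1.01 for *pals-32*, 1.92 for *irg-4* and -0.02 for *dod-3*. *dod-24*, a CUB-like protein of the innate immune response, averaged 1.08 with CoCl2 and -0.42 untreated (difference 1.495, adjusted p = 0.00048). Median centering left 11 higher calls in the list and ended that of *dod-24*.

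Of 186 C-type lectins, 38 were higher and 12 lower (median 0.04), and of 51 lysozymes, saposins and antimicrobial peptides 15 were higher and 7 lower (median 0.05). *abf-5*, an antibacterial factor, read 1.43, 1.41 and 1.21 (mean 1.35, SE 0.08), against 0.05 untreated, and *lys-2*, a lysozyme, averaged 1.04 (SE 0.11). *ilys-2*, an invertebrate-type lysozyme, and *spp-1*, a pore-forming saposin-like protein, averaged -0.72 and -0.66 (SE 0.10 and 0.09). *cnc-2*, an epidermal antimicrobial peptide, turned its sign, at -0.48, -0.58 and -0.70 with CoCl2 (mean -0.59, SE 0.09) and 1.45 untreated (difference -2.03, adjusted p = 1e-05). Median centering left 3 of these 51 genes higher and none lower.

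The detoxification families gave unlike counts. Of 43 glutathione S-transferases 19 were higher and 2 lower (median 0.39), led by *gst-24* at 2.82, 2.94 and 2.77 (mean 2.84, SE 0.11, 7.18-fold). In the untreated strains 12 of the 43 were higher and none lower (median 0.21). A with-minus-without difference passed the threshold above 0 in 3 and below 0 in 1, and that of *gst-24* did not pass. *gst-20* averaged 1.26 (SE 0.08), and *gst-44* averaged -0.78 (SE 0.10). Of 68 cytochromes P450, 6 were higher and 8 lower with CoCl2, against 2 higher and 18 lower untreated. *cyp-35A2* read -1.60, -1.87 and -1.74 (mean -1.74, SE 0.09) and *cyp-35C1* averaged -1.61 (SE 0.19). The UDP-glucuronosyltransferases, which conjugate sugars to foreign compounds, had 10 of 66 higher and 9 lower with CoCl2, against 26 higher and 1 lower untreated. *ugt-17* read -1.69, -2.46 and -2.23 (mean -2.13, SE 0.19), against 0.18 untreated (difference -2.31, adjusted p = 0.00036). Of these 66 genes, 11 had a negative difference past the threshold and 1 a positive one. Among the short-chain dehydrogenases *dhs-25* averaged -1.21 with CoCl2 and 0.75 untreated, and *dhs-9* averaged 1.295 and -0.07. Median centering ended the call of *dhs-25* and left 7 higher glutathione S-transferases and 3 higher and 2 lower UDP-glucuronosyltransferases.

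Markers of the main tissues were not at one level. Of 8 body wall muscle markers 7 were higher (median 0.65), with the myosin heavy chain *myo-3* at 1.06 (SE 0.09) and the paramyosin *unc-15* at 0.68 (SE 0.06), and 4 of the 8 were higher untreated (median 0.51). None of the 8 had a with-minus-without difference past the threshold. Of 6 pharynx markers 4 were higher, and of 8 neuron markers 3, among them *egl-21*, a peptidase that processes neuropeptides (0.63, SE 0.08). Of 9 intestine markers 5 were higher and 2 lower. The gut esterase *ges-1* averaged 0.55 (SE 0.06), and the sodium-proton exchanger *nhx-2* averaged -0.81 (SE 0.12). After median centering, 1 muscle marker and no intestine, pharynx or neuron marker was called. The part of tissue composition in the gene lists above was not tested.

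The protease list of the intestine was split, with 6 of 23 higher and 7 lower. *asp-14* and *asp-13*, aspartic proteases, averaged 1.70 and -0.77 (SE 0.11 and 0.10), and *cpr-6*, a cathepsin B-like protease, read -1.27, -1.21 and -1.197 (mean -1.23, SE 0.05). The call of *asp-13* was lost after median centering. Of 65 cytosolic ribosomal proteins 11 were higher and none lower (median 0.17), of 38 respiratory chain genes 5 were higher and none lower (median 0.13), and of 32 proteasome subunits 1 was lower (median -0.07). The medians of these housekeeping lists were thus nearer to 0 than those of the muscle and intestine markers.

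Neuropeptide genes had more higher calls with CoCl2 than in the untreated strains. Of 100 *flp* and *nlp* genes, 35 were higher and 6 lower with CoCl2 (median 0.24), against 9 higher and 4 lower untreated (median 0.04), and 9 were higher after median centering. *nlp-25* averaged 1.29 (SE 0.10), *nlp-51* 0.95 (SE 0.10) and *flp-18* 0.93 (SE 0.12), while *nlp-4* averaged -1.09 (SE 0.11). Of 37 insulin-like peptide genes 8 were higher and 3 lower, a split near that of all genes. *ins-37* read 1.72, 1.87 and 1.87 (mean 1.82, SE 0.07), and *ins-19* read -1.62, -1.80 and -1.73 (mean -1.71, SE 0.09), with the mutant channel above background on 2 of the 3 arrays for *ins-19*, whose mean was -4.91 by the scanner software's ratios and -3.497 with normexp at offset 0.

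The strain difference with CoCl2 shared much with that of the untreated strains. Of the 3129 genes higher with CoCl2, 1697 were also higher untreated, which is 54.2% of the genes higher with CoCl2 and 73.1% of the 2322 genes (10.5% of those tested) higher untreated. Of the 1197 genes lower with CoCl2, 378 were also lower untreated, 31.6% of these and 52.9% of the 714 (3.24%) lower untreated. The 2 sets of arrays share no RNA, and their mean log2 ratios correlated across genes with r = 0.75, where genes are not independent replicates.

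A test of the difference itself called 673 genes, 3.05% of those tested, with 378 above 0 (1.71%) and 295 below (1.34%). Of the 1404 genes called higher only with CoCl2, 272 had such a difference, and of the 764 called lower only with CoCl2, 94. Turned signs were seen in 83 genes, of which 55 were lower with CoCl2 and higher untreated and 28 the reverse. The difference was past the threshold in all 83. That largely follows from their calls in opposite directions in the same fit, so it is no added support. The differences called after median centering included those of *sodh-1*, *hrg-4*, *ugt-17* and *cnc-2*. Leaving out CoCl2-treated replicate 1, 2 or 3 gave 218, 132 and 228 above 0 and 242, 135 and 166 below, and leaving out untreated replicate 1 or 2 gave 146 and 168 above and 136 and 159 below.

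Beside *sodh-1*, the largest differences above 0 were in *F46C5.1*, which read 2.31, 2.61 and 2.48 with CoCl2 (mean 2.47) and -1.24 untreated, and in *C50F7.5*, which averaged 1.37 and was not called with CoCl2 and -2.23 untreated. Their differences were 3.71 (SE 0.27) and 3.61 (SE 0.60). *C23G10.11* read 2.63, 2.86 and 3.30 (mean 2.93, SE 0.11), against -0.09 untreated, and *best-1*, a bestrophin chloride channel, averaged 2.80, against 0.25 untreated. These genes were thus near 0 or below in the untreated mutant and, other than *C50F7.5*, well above 0 with CoCl2. Below 0, after *hrg-7* and *hrg-4*, the largest included *Y49G5A.1* (-2.31 with CoCl2, 0.40 untreated), *F18E3.12* (-1.40 and 1.26), *R193.2* (-1.30 and 1.14) and *R07E5.4* (-1.45 and 0.94). The last 3 turned their sign, and the call of a difference held after median centering for *F46C5.1*, *C23G10.11*, *F18E3.12* and *R193.2*. The call for *C50F7.5* was lost without any 1 array with CoCl2 and without untreated replicate 1 (adjusted p 0.0113 to 0.0206).

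**Figure D5:**
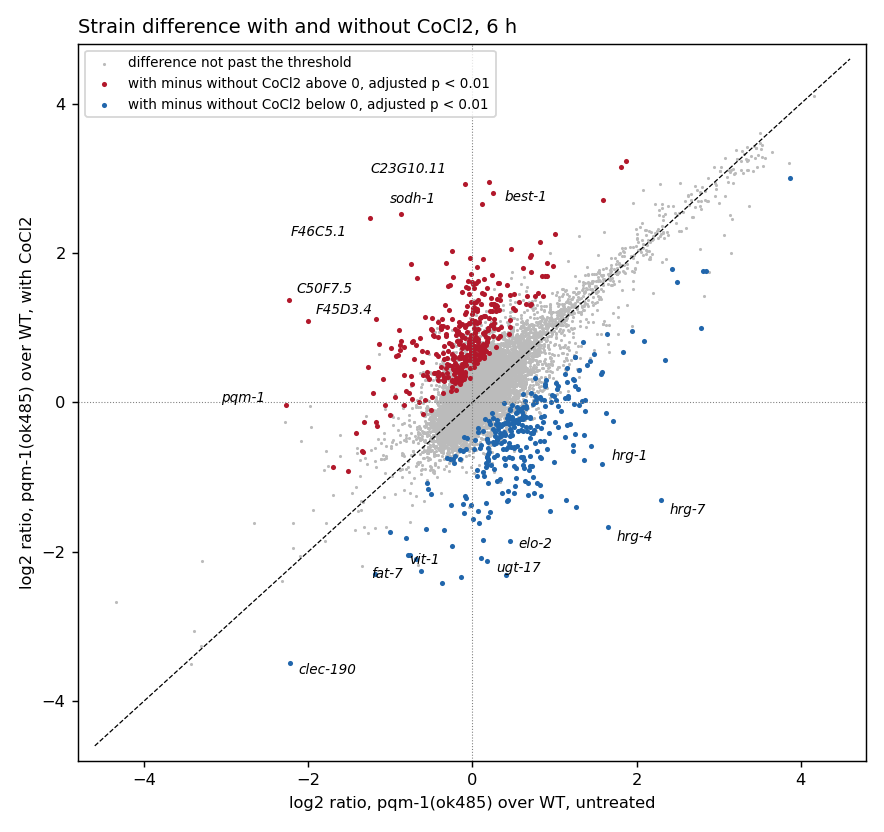
Mean log2 ratio of *pqm-1(ok485)* over WT with CoCl2 (y axis) against that in the untreated strains (x axis) for each gene tested, with the genes past the threshold for the difference in color and a dashed line where both are equal. Most genes lie along the line, *sodh-1* and *F46C5.1* lie in the upper left, and *hrg-4* and *hrg-7* lie in the lower right.

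The calls were spread over all chromosomes, with the highest share of higher calls on IV. On chromosome IV, which holds many *msp* genes, 20.6% of the genes tested were higher and 7.11% were higher by at least 2-fold. On the other 5 chromosomes the shares were 13.8% to 17.2% and 1.79% to 5.17%, and the lowest 2-fold share was on X. Lower calls made up 5.51% to 7.60% of the genes of a chromosome, with the highest share on X. The 183 lower calls on X include 4 of the 5 vitellogenins tested. Lower calls of at least 2-fold made up 0.151% to 0.802%, with the highest share on V, against 0.581% on X.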

How the data were processed

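Total RNA of *pqm-1(ok485)* and N2 worms was labeled by the authors with Cy3 and Cy5 and hybridized to Agilent 4x44K arrays, and the scanner intensity values were deposited as median spot and background signals (Feature Extraction 12.0.2.2, per the file headers). The deposited log10 ratios are that software's processed Cy5 over Cy3, and the deposited log2 series table holds the same ratios turned to mutant over WT.

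Background was corrected with normexp (offset 50) and log2 ratios were normalized by loess within arrays in R 4.3.3 with limma 3.58.1. Control and outlier spots were left out. Of 43603 probes, 34514 were matched to genes of the RefSeq table by name or accession, and probes of a gene were averaged. Probes were kept if, in 1 comparison or more, each array showed them above background in either channel, and a gene needed values on at least 2 arrays of each comparison. All 12 arrays at 6 h were fitted together (lmFit, eBayes, 4 comparisons), two-sided, with Benjamini-Hochberg adjusted p below 0.01 called. The limma test rests on 3 arrays per comparison. Its SE uses the spread over all 12 arrays, with 8 residual and 3.77 prior degrees of freedom. The fit was tested on simulated data.

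The genes and the 46 lists were chosen with earlier results of these data known. The rule for named genes took the 15 largest rises and the 15 largest falls, the 4 highest or lowest called members of a list, members of a list of at most 16 genes, genes the study names for this comparison, or the 10 largest differences in each direction. Not every gene the rule allows is named. Alternatives covered the scaling, filters, SAM, dyes, slides, replicates and each array left out. Genes with a called ratio and 1 strain not above background on any array are not named.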

Additional observations from a re-analysis of the deposited data

Results flagged for a closer look

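For 57 of the genes named above, the strain difference with CoCl2 differed from that of the untreated strains by the limma test of the difference itself. Each value here is the log2 ratio of *pqm-1(ok485)* over WT with CoCl2 minus that without it. CoCl2 and slide cannot be told apart in these differences. The dyes were also not balanced between the 2 sets of arrays. By the fields the mutant was in Cy5 on replicate 3 with CoCl2 and on replicates 1 and 2 of the untreated strains. The main fit held no dye term, and with such a term none of the 57 differences lost its call.

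Among stress, immune and metal genes, the differences above 0 were 1.96 for *dod-3*, 1.495 for *dod-24*, 1.24 for *pals-32*, 1.303 for *abf-5*, 1.32 for *hsp-16.2*, 1.58 for *numr-1*, 0.46 for *ftn-2* and 0.67 for *sod-4*. In metabolism they were 3.398 for *sodh-1*, 1.62 for *far-7*, 1.40 for *acs-2*, 1.21 for *acs-17*, 0.77 for *fat-5* and 1.36 for *dhs-9*. The remaining ones above 0 were 3.71 for *F46C5.1*, 3.61 for *C50F7.5*, 3.02 for *C23G10.11*, 2.55 for *best-1*, 2.23 for *pqm-1*, 1.85 for *grd-16*, 1.14 for *nlp-51*, 0.81 for *asp-14* and 0.54 for *ges-1*.

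Below 0, the heme genes had -3.60 for *hrg-7*, -3.31 for *hrg-4*, -2.41 for *hrg-1*, -2.12 for *hrg-2*, -1.93 for *hrg-3* and -1.12 for *hrg-6*, and the metal genes -1.68 for *smf-3* and -0.90 for *mtl-2*. The lipid and yolk genes had -2.31 for *elo-2*, -1.73 for *elo-6*, -1.69 for *elo-5*, -1.64 for *fat-7*, -2.08 for *ech-9*, -1.57 for *ech-7*, -1.36 for *acdh-1*, -1.21 for *acdh-2*, -1.25 for *hacd-1*, -1.68 for *vit-1* and -1.003 for *vit-4*. Detoxification, immune and protease genes had -2.31 for *ugt-17*, -1.96 for *dhs-25*, -0.73 for *cyp-35A2*, -2.03 for *cnc-2*, -1.27 for *clec-190*, -1.40 for *asp-13* and -0.72 for *cpr-6*. The remaining ones below 0 were -2.71 for *Y49G5A.1*, -2.66 for *F18E3.12*, -2.45 for *R193.2*, -2.39 for *R07E5.4*, -1.11 for *M199.9*, -1.37 for *ins-19*, -1.27 for *nlp-4* and -0.98 for *nhx-2*. Of these 57 calls, 8 held under every alternative in which they could be fitted (20 for *C23G10.11* and 21 for the other 7) other than the dyes of the source names, and median centering ended 49. Other alternatives ended calls as well. Of 21 alternatives, 14 ended the call of *ftn-2*, 12 that of *asp-14* and 10 that of *hsp-16.2*. For *acdh-2*, *ech-9*, *fat-5*, *nhx-2* and *vit-1* the number was 9 each. Like *vit-1*, the genes *ftn-2*, *ech-9*, *smf-3* and *cyp-35A2* lost the call without any 1 array of the compared sets. The difference of *hsp-16.2* was 0.0033 by the scanner software's ratios, 0.42 with normexp at offset 0 and 0.86 with the loop model (limma adjusted p = 0.999, 0.427 and 0.0111), against 1.32. That of *numr-1* was 0.97 and that of *F46C5.1* 3.04 with the loop model.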

How the results depend on the processing

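With CoCl2, 3129 genes were higher and 1197 lower. SAM called 303 lower, median centering 1498 higher and 169 lower, the scanner software's ratio 1920 lower and the values of the series matrix 1921 lower. An adjusted p below 0.05 gave 2242 lower, a fit of the 3 arrays alone 772 lower, a dye term 1907 lower, a dye term for each slide 2535 lower, the slide as a random block (correlation -0.24) 5534 higher and 3862 lower, and the loop model 1884 lower. Slide nearly followed comparison, so the slide block cannot tell slide from comparison. Its negative correlation also narrows the SE of a comparison's mean. Leaving out 1 replicate gave 2199 to 2681 higher and 560 to 899 lower. The 378 differences above 0 and 295 below became 1064 and 525 with SAM, 804 and 593 at 0.05, 181 and 200 with normexp at offset 0, 3 and 9 after median centering, 194 below in the fit of the compared arrays, 569 and 454 with a dye term, 928 and 700 with a dye term for each slide, 1889 and 1247 with the slide as a random block, and 893 and 767 with the loop model. Leaving out 1 array gave 132 to 385 above and 135 to 355 below. Deviations from the mean of each comparison correlated at -0.32, -0.42 and -0.67 between arrays of the same replicate number, with CoCl2 against untreated. By the fields those arrays had opposite dyes at each number, so the correlations cannot show whether replicate numbers paired the samples. The replicate block gave 2740 higher and 874 lower, and differences of 240 and 201. Under the dyes of the source names limma called 0 genes higher, 0 lower, and 0 differences above or below 0, with 1994 genes and 472 differences at an unadjusted p below 0.05, against 8413 and 3844. No scaling moved the median of all genes by over 0.1. None of the 112 called ratios and 57 called differences of named genes changed sign under the other alternatives, and 68 of the 112 calls held under all that could be fitted. The fold of 20 of the 112 moved by over 1.5 times under some alternative, 19 with the scanner software's ratios, 13 with normexp at offset 0, and 2 with each probe tested on its own or a strict filter on dim probes, each time away from 0. Cause was not tested for any of these changes. The 3 arrays per comparison limit the precision. The promoter motifs planned were not analysed here.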
